A study of Mus musculus with 12 samples.

Results

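The ionotropic glutamate receptors of the AMPA and kainate families were followed through 9 subunit genes, Gria1 to Gria4 for AMPA receptors and Grik1 to Grik5 for kainate receptors. They were chosen by gene symbol, with earlier results of these data known. The 9 genes were listed as 20 RefSeq transcripts, 13 for the AMPA and 7 for the kainate subunits, among 24452 genes and 35840 transcripts in the count tables. Counts were summed per gene, and 14739 genes, with all 9 subunit genes among them, had enough counts to be tested. At the transcript level 21715 were tested, of which 19 belonged to the 9 genes. The Gria3 transcript NM_001290451 was listed at or near 0 in every library and was not tested.

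AMPA receptors are tetramers that open within milliseconds of glutamate binding and carry most fast excitatory transmission in the cortex. GluA2, the product of Gria2, makes the channel nearly impermeable to calcium after its transcript is edited by adenosine deaminases, and its level climbs during the first postnatal weeks. Kainate receptors are built from the low-affinity subunits GluK1 to GluK3 (Grik1 to Grik3) and the high-affinity subunits GluK4 and GluK5 (Grik4 and Grik5), which form channels only together with a low-affinity subunit. They act both before and after the synapse and on the growth of immature neurons.

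Somatosensory cortex was taken from male C57BL/6 mice on P7, 8 hours after ethanol or saline had been injected intraperitoneally. The 4 groups of 3 libraries were wild-type (WT) mice given saline, WT mice given ethanol (EtOH), p53 KO mice given saline and p53 KO mice given ethanol. The KO mice came from heterozygote matings of a line with a germline disruption of Trp53, so that p53 was lost in every cell type, and WT mice were offspring of the same kind of matings. All groups were injected, and no uninjected mice were profiled. Replicates were numbered here within a group in the order of deposit, so that equal numbers in different groups pair nothing. The labels do not say which libraries share a litter, and a p-value therefore measures the spread among these libraries. In bulk tissue, fewer cells of a type and less RNA per cell cannot be told apart.

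Each of Gria1 to Gria4 has a pair of mutually exclusive coding exons of equal length, called flip and flop, which set how fast the channel desensitizes. Transcripts of these genes differ in this pair, which the flip and flop shares given here rest on, and the exons of the 2 most abundant AMPA subunit genes are shown for that reason. They were read from the GENCODE vM21 models on GRCm38 (mm10), 5′ to 3′ on the coding strand, and capitals mark the bases that differ between the 2 exons of a gene (36 bases in Gria1 and 36 in Gria2). The flip exon of Gria1, in NM_001113325 and NM_001252403, is on chromosome 11, 57310608 to 57310722 on the plus strand, and the flop exon, in NM_008165, is at 57309769 to 57309883. The flip exon of Gria2, in NM_001083806, is on chromosome 3, 80690404 to 80690518 on the minus strand, and the flop exon, in NM_013540, is at 80691320 to 80691434.
Gria1 flip: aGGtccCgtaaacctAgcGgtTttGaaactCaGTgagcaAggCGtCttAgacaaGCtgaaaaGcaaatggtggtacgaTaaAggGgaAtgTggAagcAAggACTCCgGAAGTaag
Gria1 flop: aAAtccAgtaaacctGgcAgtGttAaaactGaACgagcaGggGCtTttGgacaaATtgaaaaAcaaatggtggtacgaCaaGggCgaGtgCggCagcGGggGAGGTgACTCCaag
Gria2 flip: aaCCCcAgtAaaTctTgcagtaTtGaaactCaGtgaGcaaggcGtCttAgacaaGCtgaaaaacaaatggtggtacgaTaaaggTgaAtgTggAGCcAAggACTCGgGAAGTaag
Gria2 flop: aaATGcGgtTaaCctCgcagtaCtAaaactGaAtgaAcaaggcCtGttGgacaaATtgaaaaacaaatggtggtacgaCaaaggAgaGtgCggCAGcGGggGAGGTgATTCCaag
The exons were named by a search of their translation in the reading frame of the model. In Gria3 the flip exon belongs to NM_001281929 and NM_016886, the flop exon to NM_001290451, and NR_104053 holds both. In Gria4 NM_019691 holds flip and NM_001113180 holds flop.

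Grik1 differs between its 2 transcripts by an exon of 87 bases that is present in NM_146072 and absent from NM_010348. It is coding sequence on chromosome 16, 87896809 to 87896895 on the minus strand. It is shown because the listed division of counts between these transcripts differed among libraries.
Grik1 exon of NM_146072: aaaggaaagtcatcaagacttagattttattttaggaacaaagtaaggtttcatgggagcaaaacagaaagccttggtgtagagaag
Grik2 transcript NM_010349 likewise has an 87-base exon (chromosome 10, 49104979 to 49105065) that NM_001111268 lacks, and the reading frame ends within it.

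The total estimated count was between 5060577 and 17066392 in 10 libraries, and 1953154 in WT saline replicate 1 and 719735 in KO EtOH replicate 1. Both have names that open with L, while the others open with P. Part of the tissue was cut out by laser microdissection and the rest with a hole punch, and the sources do not say which libraries were which. The 2 Trp53 transcripts span the same interval, so their sum does not check the disruption, and a share of the count went to NM_001127233. WT libraries gave it 7.01% to 23.1%, and 5 of the 6 KO libraries 48.3% to 70.6%. The library labelled KO EtOH replicate 1 was at 7.01% of only 14 Trp53 counts. The same share was listed in WT saline replicates 1 and 2 and WT EtOH replicate 3. A share repeated in this way carries no measured division of counts, so it does not check the genotype of the library labelled KO EtOH replicate 1. Cortical neuron markers summed to between 374 and 1441 normalized CPM (counts relative to the library total scaled by TMM factors) and were detected in every library. Choroid plexus markers summed to between 0 and 4999 CPM, with the highest value in WT EtOH replicate 1, and striatal neuron markers to between 97.0 and 923 CPM, with the highest in WT EtOH replicate 2.

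Per length of gene model, Gria2 was the most abundant of the 9 genes, at 68.6 ± 34.7 RPKM (SD, n = 12 libraries). Gria1 followed at 39.2 ± 14.8 and Grik5 at 32.0 ± 12.8 RPKM. Gria4 was at 18.9 ± 5.42, Gria3 at 14.4 ± 3.99, Grik2 at 11.5 ± 4.95 and Grik1 at 8.68 ± 3.27 RPKM. The lowest levels were those of Grik3 (7.24 ± 3.04 RPKM) and Grik4 (3.16 ± 1.23 RPKM). Neighbours in this order differed by less than the larger of their SDs, with the exception of Grik5 above Gria4 and of Grik3 above Grik4. Grik3 exceeded Grik4 in all 12 libraries, whereas Gria2 exceeded Gria1 in 8 of 12. Summed over the family, AMPA subunits were at 79.7 ± 13.5 RPKM in the WT saline group and 166 ± 24.8 in KO mice given saline (SD, n = 3). After ethanol they were at 173 ± 17.5 in WT and 146 ± 59.6 RPKM in KO mice. The library labelled KO EtOH replicate 1 had the lowest AMPA sum of its group. Gria2 was at 23.6 RPKM in that library and at 86.6 and 100.1 in the other KO ethanol libraries. Kainate subunits summed to 41.4 ± 23.4 and 65.0 ± 12.1 RPKM under saline in WT and KO mice and to 72.5 ± 12.7 and 71.2 ± 19.2 RPKM after ethanol, and their part of both families together was between 28.4% and 34.0% in the group means.

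The first comparison asked which subunit genes differed after ethanol in WT mice. All 9 log2 fold changes were above 0 and none passed adjustment. Grik2 was closest, with about 3.8-fold more counts after ethanol, and Gria2 and Gria4 followed. At an unadjusted p under 0.05, 4 of 9 were higher (Gria2, Gria4, Grik2 and Grik3) and 0 were lower. Among all genes tested 18.3% were under 0.05 unadjusted, 9.99% in the higher direction, and 0.0746% (11 genes) had an adjusted p under 0.05. The median log2 fold change was 0.94 over the 9 genes and 0.06 over all genes tested. In 5 of 9 genes (Gria2, Gria4, Grik1, Grik2 and Grik3) the 3 ethanol libraries lay above the 3 saline libraries, as they did in 11.3% of all genes. The direction over all genes depended on scaling. The unadjusted calls were 1472 higher and 1232 lower with TMM factors and 2676 higher and 318 lower without them, with a median log2 fold change of 0.49 without them.

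**Figure D1:**
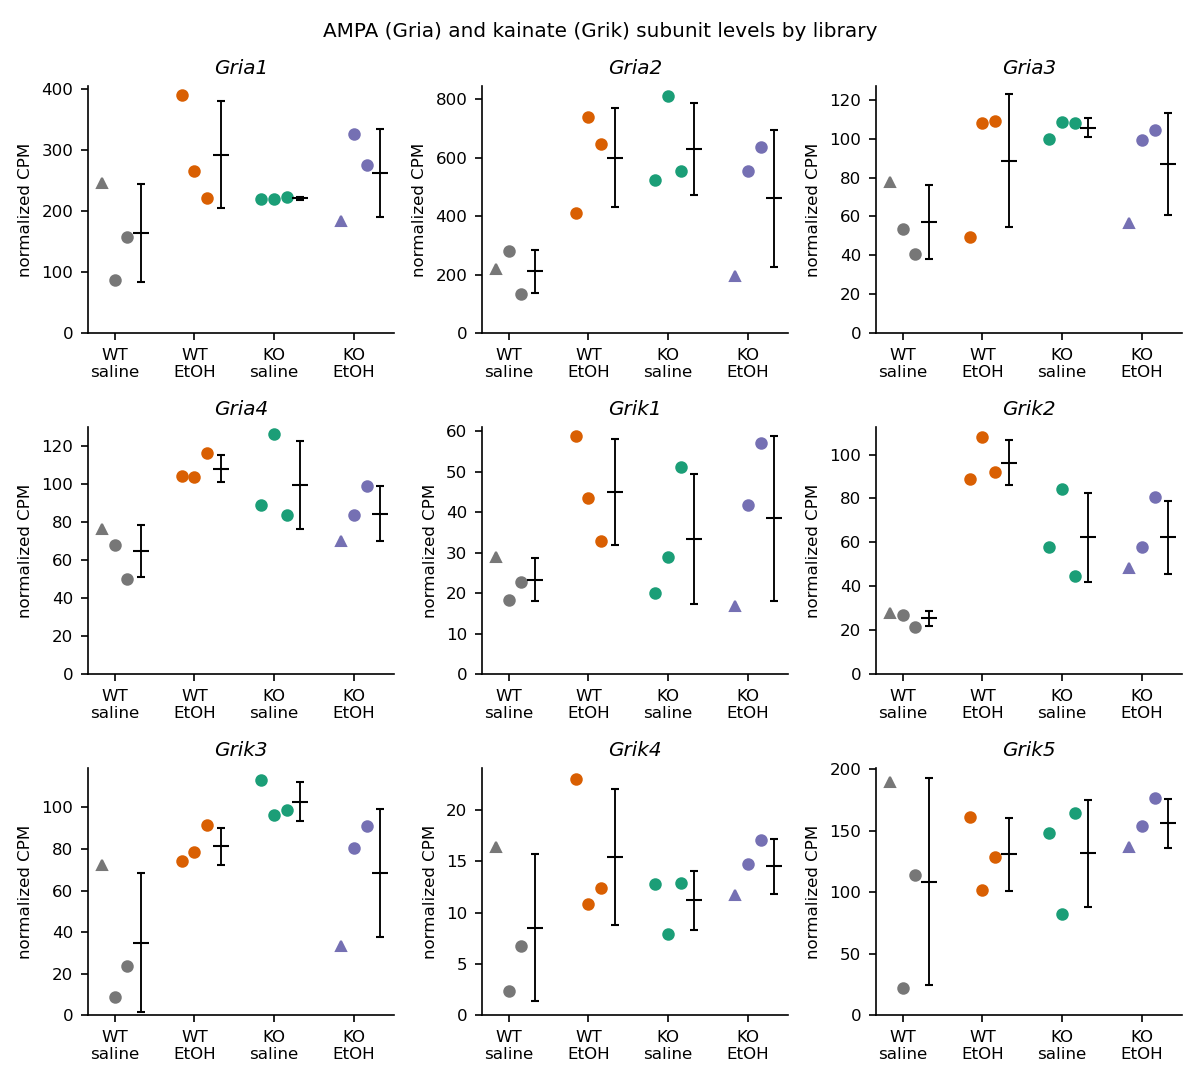
Normalized CPM of the 9 subunit genes (y axes, each from 0) in the 12 libraries by group, with triangles for the 2 libraries whose names open with L and black bars for the group mean ± SD (n = 3). The Grik2 points of WT saline lie between 21.5 and 27.8 CPM and those of WT ethanol between 88.7 and 108, and the Gria2 point of the library labelled KO EtOH replicate 1 (194 CPM) lies with the WT saline points.

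Grik2 (chromosome 10, 49099463 to 49788755) encodes GluK2, the low-affinity subunit found in most cortical kainate receptors. It was at 27.8, 27.0 and 21.5 normalized CPM in WT saline replicates 1 to 3 and at 88.7, 108 and 92.1 in the WT ethanol libraries. The groups did not overlap, and libraries of one group lay close together. The log2 fold change was 1.93 ± 0.34 (SE), a fold of 3.8, with an adjusted p of 0.0639 (edgeR quasi-likelihood test, Benjamini-Hochberg adjustment over all genes tested).

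Gria2 (chromosome 3, 80684936 to 80802792) was at 219, 280.2 and 133 normalized CPM in WT saline and 411, 741 and 646 in WT ethanol libraries. The lowest ethanol library, replicate 1, was also the one with the most choroid plexus RNA. The log2 fold change was 1.51 ± 0.49 with an edgeR adjusted p of 0.198.

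The Grik3 gene (chromosome 4, 125490831 to 125714174), for GluK3, a subunit with low sensitivity to glutamate, was at 72.5, 8.45 and 23.6 normalized CPM in WT saline and 74.1, 78.7 and 91.4 in WT ethanol libraries. WT saline replicate 1 stood just below the ethanol libraries and the other two far below. The log2 fold change was 1.26 ± 0.58 (edgeR adjusted p = 0.266).

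Gria4 (chromosome 9, 4417893 to 4796235), an AMPA subunit prominent in early development and in interneurons, was at 76.6, 68.2 and 50.1 normalized CPM in WT saline and 104, 104 and 117 in WT ethanol libraries. The ethanol libraries differed little among themselves, and the log2 fold change was 0.74 ± 0.31 (edgeR adjusted p = 0.238). Grik1 (chromosome 16, 87895897 to 88290259), for GluK1, a subunit enriched in interneurons, was at 28.8, 18.2 and 22.7 in WT saline and 58.8, 43.4 and 32.8 normalized CPM in WT ethanol. The groups did not overlap for Grik1, with a log2 fold change of 0.96 ± 0.46 and an edgeR adjusted p of 0.282.

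Marker genes of several cell types also differed in this comparison. Of interneuron markers 2 of 6 were higher at an unadjusted p under 0.05 and 0 lower, and they summed to 262 to 606 normalized CPM in WT saline and 401 to 639 in WT ethanol libraries. Gad1, for an enzyme of GABA synthesis, was lowest at 74.0 CPM in WT saline and at 172, 141 and 149 CPM in WT ethanol libraries. Neither Gad1 nor Gad2 overlapped between the groups, whereas the other interneuron markers, Slc32a1, Lhx6, Sst and Npy, did. Of these 2 groups, the highest Sst and Lhx6 values were in a saline library and the lowest in an ethanol library. Of striatal neuron markers 3 of 5 were higher (median log2 fold change 1.95, sums of 148 to 163 and 109 to 923 CPM). Of choroid plexus markers 2 of 4 were higher (median 3.18, sums of 3.6 to 119 and 22.1 to 4999 CPM). Of cortical neuron markers 0 of 8 were higher and 1 was lower (median -0.82, sums of 1097 to 1441 and 374 to 1178 CPM). In KO against WT saline, none of the genes of these 4 lists was under 0.05 unadjusted, with medians of 0.25, -0.15, 2.22 and -0.14 in the same order. Genes of other marker lists were. In both comparisons 2 of 6 microglia and 1 of 6 astrocyte and radial glia markers were lower and 1 of 5 endothelial markers was higher. Of oligodendrocyte lineage markers 1 of 7 was higher in KO saline and 0 in WT ethanol. Among all genes 18.3% were under 0.05 unadjusted in WT ethanol and 19.6% in KO saline against WT saline. The part of these marker genes in the subunit results was not tested.

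The groups overlapped in the other four genes. Gria1 (chromosome 11, 57011618 to 57330245), whose product GluA1 is inserted at synapses in an activity-dependent manner, was at 247, 86.7 and 157 normalized CPM in WT saline and 390.3, 267 and 222 in WT ethanol, a log2 fold change of 0.84 ± 0.41. The X-linked Gria3 (chromosome X, 41401301 to 41678602) was at 77.6, 53.5 and 40.5 and 49.4, 108 and 109 normalized CPM, a log2 fold change of 0.64 ± 0.39. One ethanol library, replicate 1, lay among the saline libraries for Gria3. Grik4 (chromosome 9, 42520412 to 42944372), for the high-affinity subunit GluK4, was at 16.5, 2.39 and 6.76 and 23.0, 10.9 and 12.4 normalized CPM (log2 fold change 0.94 ± 0.57). Grik5 (chromosome 7, 25009851 to 25072370), for GluK5, the more widely expressed high-affinity subunit, was at 189.7, 22.0 and 114 and 161, 102 and 129 normalized CPM (log2 fold change 0.28 ± 0.55). WT saline replicate 2 was the lowest library for Grik5 and replicate 1 the highest, so the spread within WT saline exceeded the difference between groups. Without WT saline replicate 2 the Grik5 log2 fold change was -0.23. Coordinates are those of the count tables (mm10), and only Grik3 shared its interval with other listed genes, the microRNA genes Mir692-2 and Mir692-3.

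The second comparison set KO against WT mice given saline. Again all 9 log2 fold changes were above 0, with a median of 0.62 against 0.04 over all genes tested, and none passed adjustment. At an unadjusted p under 0.05, 4 of 9 were higher (Gria2, Gria3, Grik2 and Grik3) and 0 lower, where 19.6% of all genes were under 0.05, 9.14% as higher, and 0.0543% after adjustment. In 5 of 9 genes (Gria2, Gria3, Gria4, Grik2 and Grik3) the 3 KO libraries lay above the 3 WT libraries, against 12.9% of all genes. The WT saline libraries were also the reference in the ethanol comparison, so their values entered both sets of fold changes.

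In KO saline libraries Grik3 was at 113, 96.3 and 98.6 normalized CPM, with a log2 fold change over WT saline of 1.59 ± 0.58 (edgeR adjusted p = 0.185). Gria2 was at 524, 812 and 555 normalized CPM, all above the WT saline libraries, and its log2 fold change was 1.58 ± 0.49 (edgeR adjusted p = 0.176). For Grik2 the 3 KO saline values were 58.0, 84.5 and 44.6 CPM and the log2 fold change was 1.30 ± 0.34 (edgeR adjusted p = 0.163). Gria3 varied little among KO saline libraries, at 99.9, 109 and 108 normalized CPM, with a log2 fold change of 0.89 ± 0.39 (edgeR adjusted p = 0.23). Gria1 also varied little, at 219, 220.1 and 224 normalized CPM, but inside the range of WT saline.

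The other subunit genes differed less between saline-treated KO and WT mice. Gria4 was at 89.2, 126 and 83.9 normalized CPM in KO saline, a log2 fold change of 0.62 ± 0.31. The log2 fold change was 0.44 ± 0.41 for Gria1, 0.53 ± 0.46 for Grik1, 0.47 ± 0.57 for Grik4 and 0.28 ± 0.55 for Grik5. Each of these 4 genes had overlapping groups, as the plot of CPM by library shows. Without WT saline replicate 2 the value for Grik5 was -0.21.

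In KO mice, ethanol and saline libraries were closer to each other. None of the 9 genes had an unadjusted p under 0.05 in this comparison, where 3.15% of all genes did and 0% passed adjustment, and the edgeR adjusted p was 0.999 for each. Log2 fold changes ran from -0.55 ± 0.57 for Grik3 to 0.41 ± 0.56 for Grik4, with 5 above and 4 below 0. Gria2 was at 194, 553 and 637 normalized CPM in the KO ethanol libraries and Grik3 at 33.4, 80.7 and 91.3. In both genes the library labelled KO EtOH replicate 1 was well below the other two. Grik2 was at 48.5, 57.9 and 80.8 normalized CPM, a log2 fold change of 0.02 ± 0.33. With each library's trend over transcript length and GC content removed, it was 0.87 ± 0.28 for Grik2 (edgeR adjusted p = 1). Grik2 was then the one subunit gene under 0.05 unadjusted, as were 1.36% of all genes. Without the library labelled KO EtOH replicate 1, log2 fold changes were -0.08 ± 0.42 for Gria2, -0.26 ± 0.60 for Grik3 and 0.15 ± 0.35 for Grik2 (SE).

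KO and WT mice given ethanol were compared last. Of 9 log2 fold changes 8 were below 0, none had an unadjusted p under 0.05 against 3.24% of all genes, and 0% of all genes passed adjustment. Grik2 was lowest, at -0.61 ± 0.33, with all 3 KO ethanol libraries below the 3 WT ethanol libraries. Gria4 also did not overlap, at 70.2, 84.1 and 99.2 normalized CPM in KO ethanol and a log2 fold change of -0.35 ± 0.31. The share of all genes that did not overlap in this direction is not given here. Gria2 (log2 fold change -0.37 ± 0.48) and Gria3 (-0.01 ± 0.38) overlapped between the groups. Without the library labelled KO EtOH replicate 1 the direction was above 0 for 6 of 9 genes, and the log2 fold change was -0.47 ± 0.35 for Grik2 and -0.24 ± 0.33 for Gria4. With the trend over length and GC content removed these were 0.02 ± 0.27 and 0.01 ± 0.23.

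**Figure D2:**
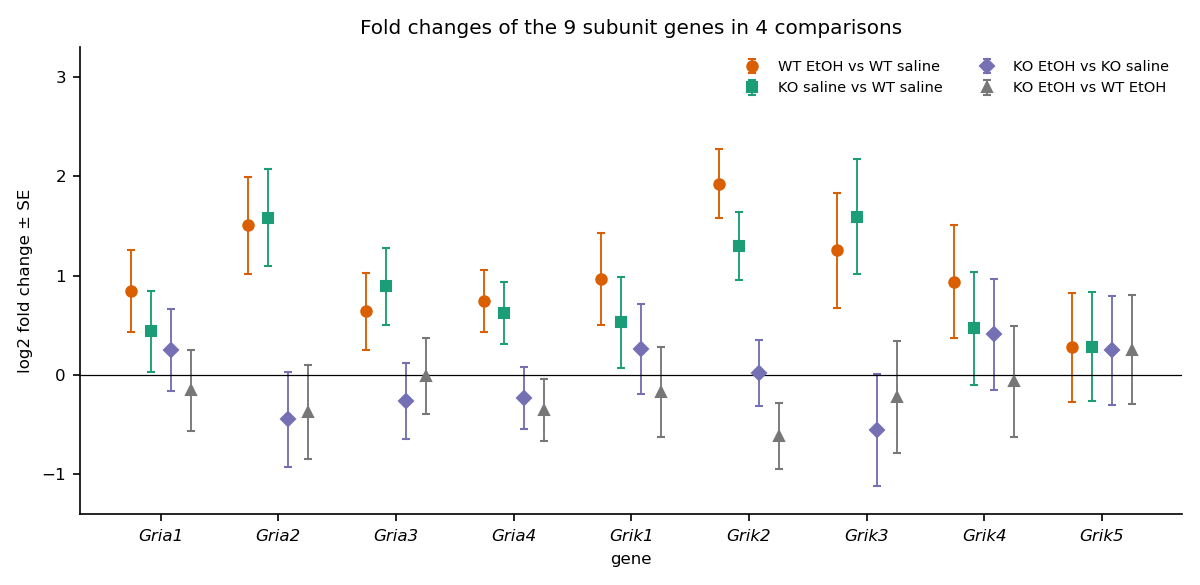
Log2 fold change ± SE (y axis) of the 9 subunit genes (x axis) in 4 comparisons from one edgeR model of all 12 libraries. The 2 comparisons against WT saline (circles and squares) are above 0 for all 9 genes, whereas those that involve KO ethanol (diamonds and triangles) lie between -0.61 and 0.41.

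The ethanol effects in KO and WT mice were compared directly by the interaction term, which is the KO log2 fold change minus the WT log2 fold change. It was below 0 for all 9 genes and had an unadjusted p under 0.05 in 4 of 9 (Gria2, Gria4, Grik2 and Grik3), against 15.2% of all genes and 0% after adjustment. The interaction was -1.95 ± 0.68 for Gria2, -1.91 ± 0.48 for Grik2, -1.81 ± 0.81 for Grik3 and -0.97 ± 0.44 for Gria4 on the log2 scale, with edgeR adjusted p-values of 0.252, 0.25, 0.314 and 0.318. The median over all genes was -0.11. For Grik5 it was -0.03 ± 0.78 from ethanol effects of 0.28 ± 0.55 in WT and 0.25 ± 0.55 in KO mice, and its SE leaves room for a sizeable difference in either direction. Its sign changed in 7 of the other settings, up to 0.48 without WT saline replicate 2.

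Averaged over both genotypes, the Treatment effect of ethanol was above 0 for all 9 genes, from 0.19 ± 0.27 for Gria3 to 0.97 ± 0.24 for Grik2. Grik2 alone had an unadjusted p under 0.05, where 7.09% of all genes did and 0% passed adjustment, and its edgeR adjusted p was 0.451. The Genotype effect averaged over both treatments was also above 0 for all 9, highest for Grik3 (0.69 ± 0.40) and Gria2 (0.60 ± 0.34). None of the 9 had an unadjusted p under 0.05, against 7.67% of all genes and 0% after adjustment. With limma on log2(RPKM + 1) the Genotype effect was below 0 for Gria4 (-0.13) and just below 0 for Grik1. Without WT saline replicate 2 it was just below 0 for Gria1 and Grik4. It was above 0 in 20 of 22 settings for Gria4 (lowest -0.14) and in 19 of 22 for Grik1 (lowest -0.04).

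Calls depended on the 2 shallow libraries. When WT saline replicate 1 and KO EtOH replicate 1 were left out, 5 of 9 subunit genes had an edgeR adjusted p under 0.05 in WT ethanol against WT saline (Gria1, Gria2, Grik2, Grik3 and Grik4), all as higher. At the same setting 21.5% of all genes passed. The log2 fold changes were then 2.26 for Grik3, 1.91 for Grik2, 1.64 for Grik4, 1.45 for Gria2 and 1.18 for Gria1. In KO against WT mice given saline 4 of 9 passed (Gria2, Gria3, Grik2 and Grik3), against 25.3% of all genes, and the log2 fold change of Grik3 was 2.61. None of the 9 interaction terms had an adjusted p under 0.05 without these 2 libraries. A single library was enough for some calls. Without WT saline replicate 1, Grik2 and Grik3 passed in both comparisons, with log2 fold changes of 1.94 ± 0.38 and 2.27 ± 0.49 in WT ethanol and 1.33 ± 0.37 and 2.63 ± 0.50 in KO saline. Of all genes 7.68% and 14.5% then passed. Without the library labelled KO EtOH replicate 1, Grik2 passed in WT ethanol against WT saline at an edgeR adjusted p of 0.0303, as 0.54% of all genes did. The interaction was then -1.78 for Grik2 and -1.59 for Gria2. Leaving out WT saline replicate 2 instead gave edgeR adjusted p-values of 0.221 for Grik2 and 0.331 for Gria2 in WT ethanol against WT saline. Their log2 fold changes were then 1.96 ± 0.40 and 1.76 ± 0.54, and those of Grik3 and Gria1 were 0.77 ± 0.48 and 0.51 ± 0.39. WT saline replicate 2, with a TMM factor of 0.564, remained in its group when the libraries named with L were left out.

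The fold changes also went with transcript length. Over all genes with a known length, the rank correlation of length with the log2 fold change was 0.48 in WT ethanol against WT saline and 0.54 in KO against WT saline (14531 genes, which share libraries and are not independent replicates). The 9 genes had a median length of 5361 bases against 2959 for all genes. With each library's trend over length and GC content removed, the WT ethanol log2 fold change of Grik2 was 1.33, that of Gria2 1.37 and that of Gria1 0.43. The difference between saline-treated KO and WT mice went from 1.30 to 0.48 for Grik2, from 0.44 to -0.01 for Gria1 and from 1.58 to 1.36 for Gria2. The interaction of Grik2 went from -1.91 to -0.46 and that of Gria4 from -0.97 to -0.13, while those of Gria2 and Grik3 were -1.41 and -1.37. The interaction terms of Gria1 and Grik4 turned slightly positive, at 0.08 and 0.01. Grik2 has the longest dominant transcript of the 9 (9427 bases, 37.9% GC) and Grik5 one of the shortest and the most GC-rich (3763 bases, 62.3% GC).

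**Figure D3:**
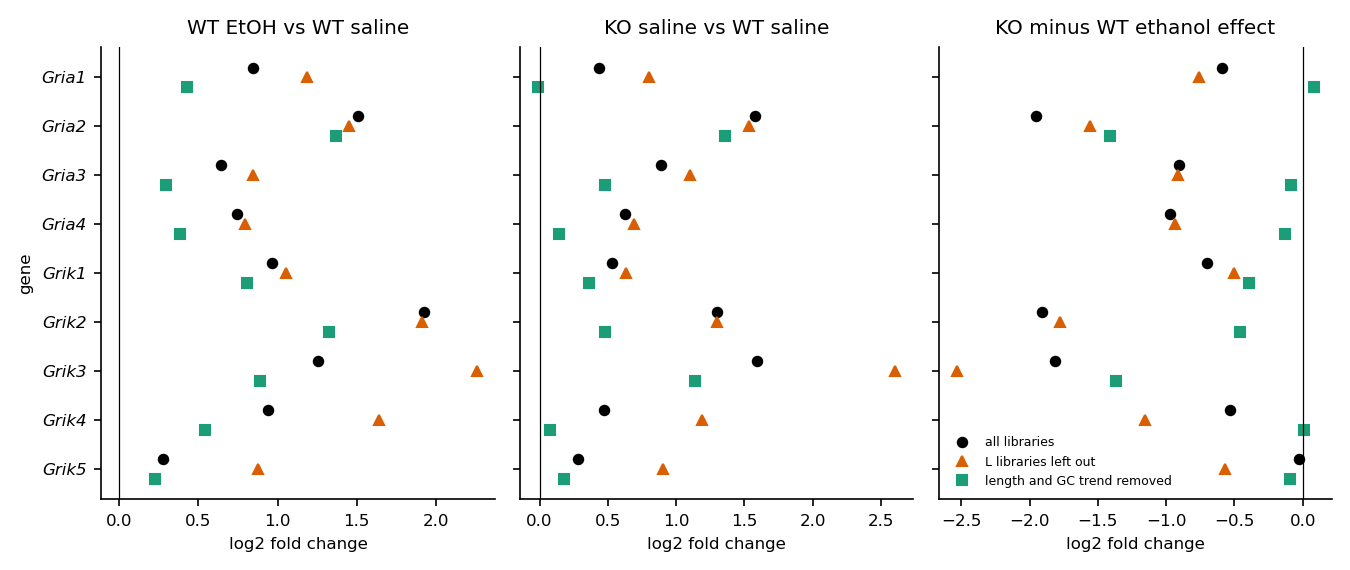
Log2 fold change (x axes) of the 9 subunit genes (y axis) in 2 comparisons and in the interaction term, with all libraries, with the 2 libraries whose names open with L left out, and with each library's trend over transcript length and GC content removed. Gria2 stays between 1.36 and 1.58 in the first 2 panels, Grik3 lies farthest from 0 without the 2 libraries, and the interaction of Grik2 is at -0.46 with the trend removed.

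The makeup of each receptor family was described by the share of a subunit in the summed RPKM of its family. Under saline Gria2 made up 32.7 ± 7.89% of AMPA subunit RPKM in WT and 55.3 ± 2.85% in KO mice (SD, n = 3). After ethanol it was 49.0 ± 8.63% in WT and 44.8 ± 12.6% in KO mice. By library the Gria2 share was 29.5%, 41.7% and 27.0% in WT saline and 52.8%, 58.4% and 54.8% in KO saline, without overlap. It was 40.1%, 57.4% and 49.6% in WT ethanol, so that 1 WT ethanol library lay below the highest WT saline library. In KO ethanol it was 30.6%, 49.0% and 54.7%, with the lowest value in the library labelled replicate 1. The Gria2 share was 22.6 percentage points higher in KO than in WT saline (two-sided exact permutation p = 0.1, and 3 libraries against 3 allow none smaller). It was 16.3 points higher in WT ethanol than in WT saline (exact permutation p = 0.2). Over the 8 share comparisons made, the Benjamini-Hochberg adjusted values of both were 0.4.

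Gria1 took 32.7 ± 12.1% of AMPA subunit RPKM in WT saline and 21.9 ± 3.56% in KO saline libraries. The share of Gria4 was 21.0 ± 5.8% in WT saline and between 12.1% and 13.7% in the means of the other groups, and that of Gria3 was between 8.29% and 13.6%. In the kainate family Grik5 held the largest share in the mean of every group, from 44.0 ± 6.87% in WT ethanol to 54.3 ± 2.31% in KO ethanol. The Grik2 share was 17.5 ± 12.4% in WT saline and 24.9 ± 6.22% in WT ethanol, a difference of 7.45 points within the spread of the libraries (exact permutation p = 0.4). WT saline replicate 2 stood apart from its group, with 31.6% Grik2 and 30.0% Grik5. Grik3 took 15.9 ± 2.62% in KO saline and 8.01 ± 2.56% in WT saline.

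**Figure D4:**
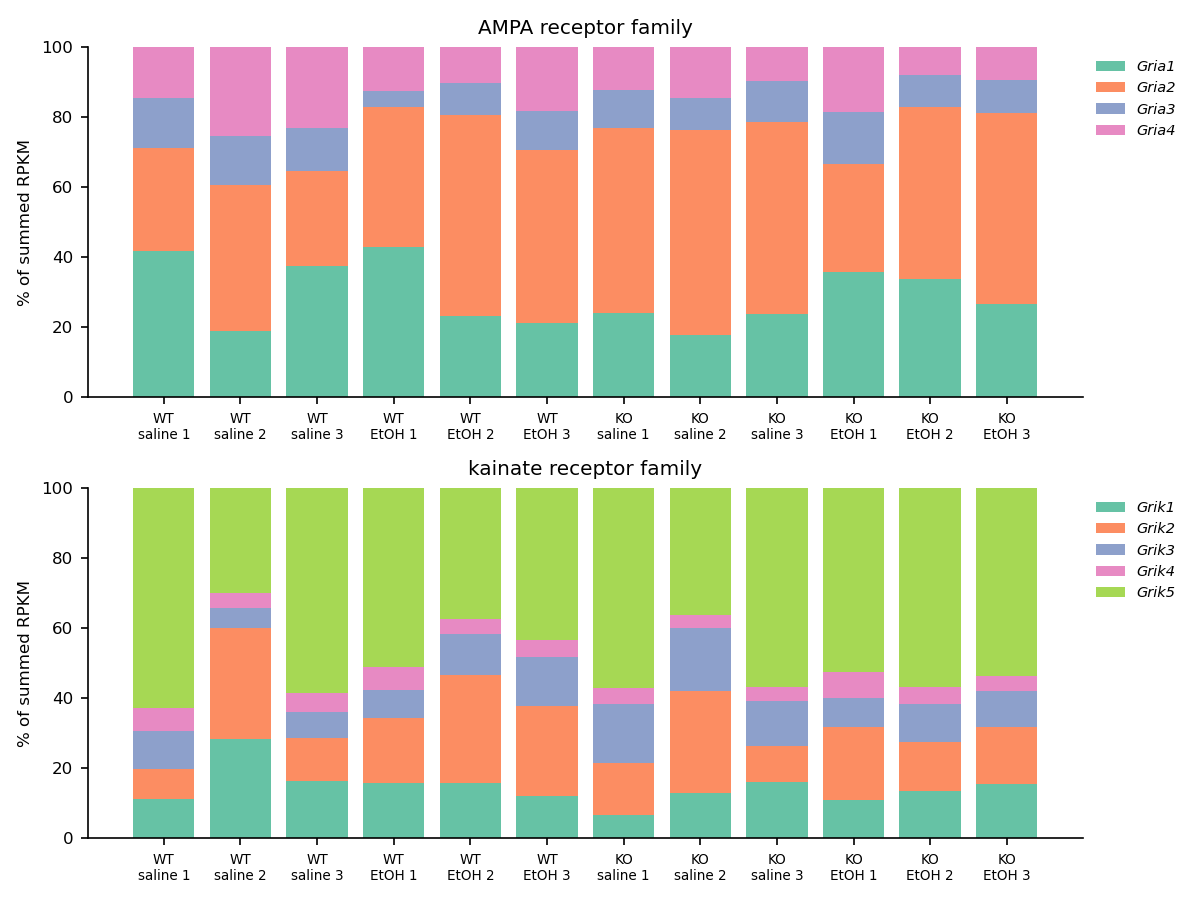
Share of each subunit gene in the summed RPKM of the AMPA family (upper panel) and the kainate family (lower panel) in the 12 libraries. Gria2 takes 27.0% to 41.7% in WT saline and 52.8% to 58.4% in KO saline libraries, and Grik5 is the largest kainate band in 11 of 12 libraries.

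At the transcript level, 7 of the 19 tested transcripts were higher at an unadjusted p under 0.05 in WT ethanol against WT saline, where 18.2% of all transcripts were under 0.05 in either direction and 0.0553% passed adjustment. In KO against WT mice given saline it was 7 of 19, against 19.1% and 0.0691%. The interaction was under 0.05 unadjusted in 7 of 19, all below 0, against 15.3% and 0% after adjustment. None of the 19 passed adjustment in these comparisons.

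The farthest from 1-fold was NM_001039195 of Gria2. Its listed interval, chromosome 3 from 80691492 to 80802792, ends short of both exons printed above, so it holds neither flip nor flop. It was at 1.02, 2.83 and 1.38 normalized CPM in WT mice given saline and 39.1, 58.6 and 21.3 in those given ethanol. In KO mice it was at 24.8, 33.9 and 34.7 with saline and 0, 31.7 and 40.3 normalized CPM with ethanol. All 3 WT saline libraries and the library labelled KO EtOH replicate 1 were below 3 CPM, and the other 8 were above 21. The log2 fold change was 4.45 ± 0.88 in WT ethanol against saline (edgeR adjusted p = 0.0841) and 4.10 ± 0.87 in KO against WT saline (edgeR adjusted p = 0.105). The interaction was -4.72 ± 1.12 (edgeR adjusted p = 0.194). Without the library labelled KO EtOH replicate 1 both differences passed adjustment, at 4.39 ± 0.53 in WT ethanol (edgeR adjusted p = 0.0114) and 4.05 ± 0.52 in KO saline (edgeR adjusted p = 0.0127), as they did in 1.21% and 1.38% of all transcripts. As a share of Gria2 counts it was between 0.519% and 0.975% in WT saline and between 3.33% and 9.56% in WT ethanol libraries. In WT saline replicates 2 and 3 the share was the same to within 0.05 percentage points, at 0.973%. A share repeated in this way may carry no measured division of counts, which limits the fold changes of this transcript against WT saline.

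The full-length Gria2 transcripts had smaller differences. The flip form NM_001083806 had a log2 fold change of 1.53 ± 0.46 in WT ethanol and 1.60 ± 0.46 in KO saline against WT saline, and the flop form NM_013540 had 1.15 ± 0.71 and 1.30 ± 0.71. Of flip and flop counts together, flip made up 60.3 ± 3.67% with saline and 63.7 ± 13.4% with ethanol in WT mice, and 64.4 ± 5.33% and 72.1 ± 19.8% in KO mice (SD, n = 3). The wide spread in KO ethanol came with the library labelled replicate 1, at 94.5% flip from 116 Gria2 counts.

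Gria1 divided differently. NM_001252403, which has its own first exon and the flip exon, held between 41.1% and 94.4% of Gria1 counts and had a log2 fold change of 0.23 ± 0.41 in WT ethanol against saline. The other flip transcript, NM_001113325, had 2.11 ± 0.60 and the flop transcript NM_008165 had 2.17 ± 0.77 (edgeR adjusted p = 0.142 and 0.193). NM_001113325 was at 8.7, 12.7 and 25.1 normalized CPM in WT saline and 101, 54.9 and 48.3 in WT ethanol libraries, with no overlap. In the 2 libraries whose names open with L, NM_001252403 took 93.1% and 94.4%, above the 41.1% to 79.2% of the other 10. Without these libraries its log2 fold change was 0.77 and that of NM_001113325 was 1.79 and that of NM_008165 was 1.88.

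Grik1 set the same 2 libraries apart. NM_010348, without the 87-base exon shown above, was listed with 76.5% of Grik1 counts in both, and between 10.2% and 33.0% in the other 10. The 76.5% was the same to within 0.05 percentage points in both. It came from 56 Grik1 counts in WT saline replicate 1 and 10 in the library labelled KO EtOH replicate 1. A value repeated in this way carries no measured difference between the transcripts in these libraries. The WT ethanol log2 fold change was 1.25 ± 0.64 for NM_146072 and 0.31 ± 0.77 for NM_010348. The 2 Grik2 transcripts had log2 fold changes of 1.85 ± 0.36 for NM_001111268 and 1.99 ± 0.47 for NM_010349.

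Some divisions were the same to within 0.05 percentage points in several libraries. NM_001111268 held 70.7% of Grik2 counts in 6 of 12 libraries, and NM_016886 held 44.6% of Gria3 counts in 6, among them all WT saline libraries. The 2 flip and flop transcripts of Gria4 had equal counts in 4 libraries. A repeated or equal value of this kind carries no measured difference between transcripts in those libraries. In the library labelled KO EtOH replicate 1 NR_104053 took 92.3% of 34 Gria3 counts, against 15.2% to 21.9% elsewhere. For Gria4, the short model NM_001113181, which ends before its flip and flop exons, held 61.3% and 61.8% in WT saline replicates 2 and 3 and 4.84% in replicate 1.

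**Figure D5:**
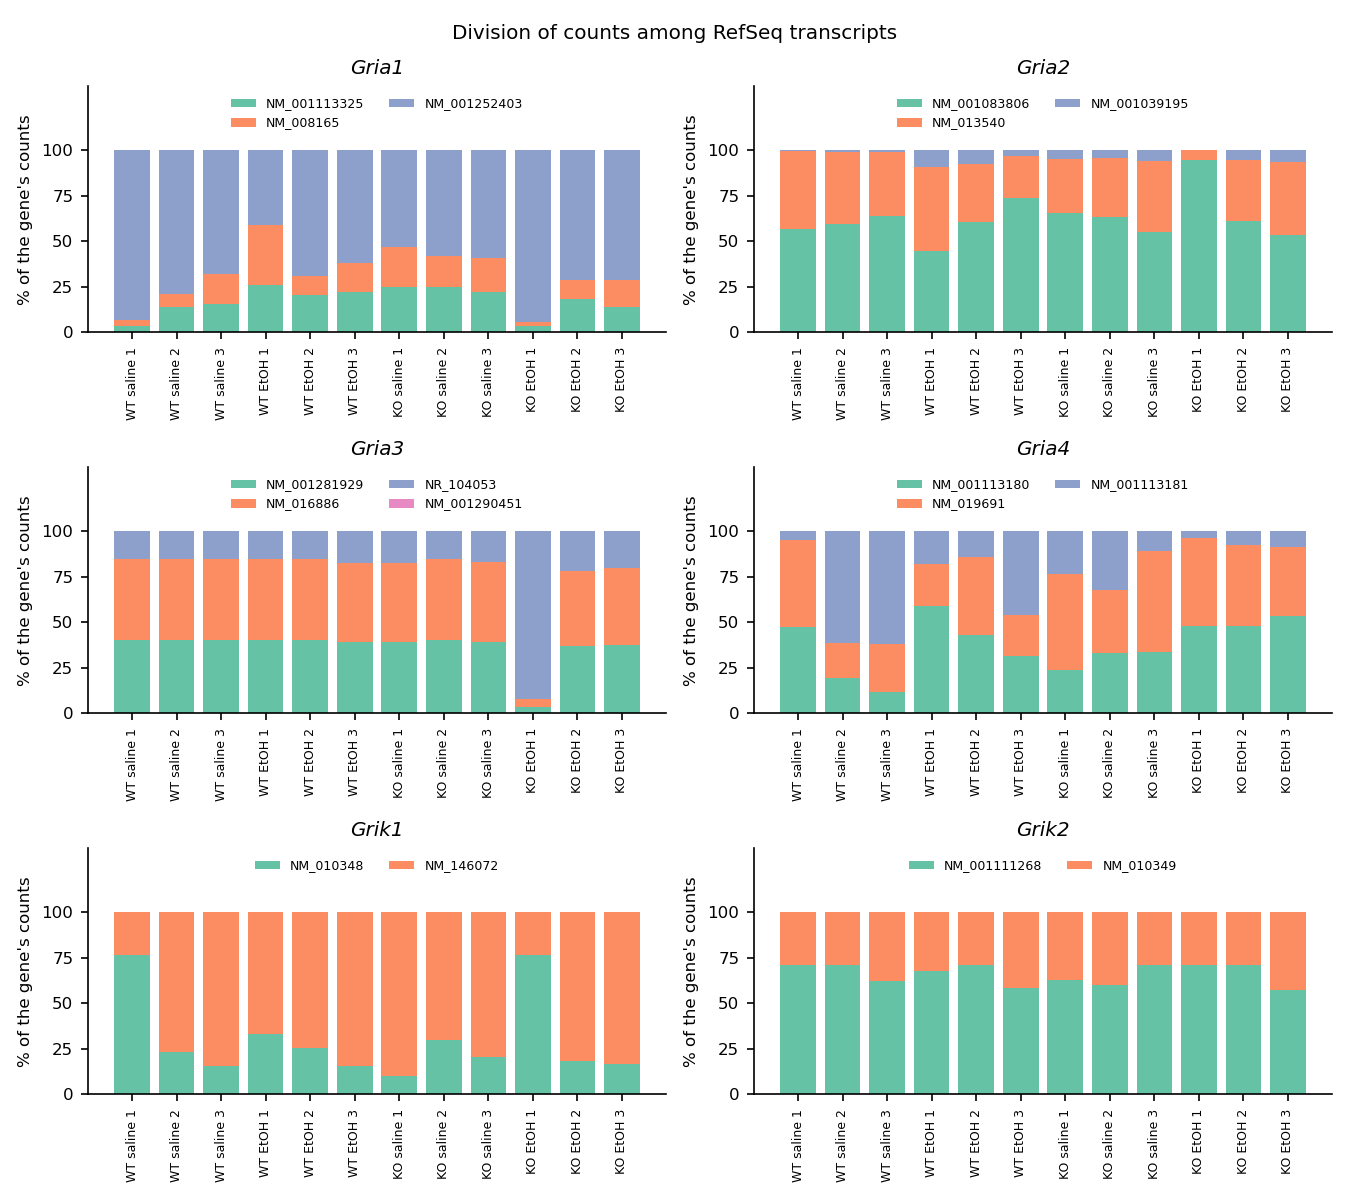
Share of each RefSeq transcript in the counts of its gene (y axes, percent) for the 6 subunit genes with more than one transcript, in the 12 libraries. WT saline replicate 1 and the library labelled KO EtOH replicate 1 stand apart in Gria1 and Grik1, with the same repeated Grik1 share in both. NM_001039195 of Gria2 is a thin band, at or under 0.975%, in WT saline.

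The subunits work with auxiliary proteins, scaffolds and the editing enzymes. Of 14 AMPA receptor auxiliary subunit genes, 3 were higher and 1 was lower at an unadjusted p under 0.05 in WT ethanol against saline, and 2 were higher and 2 lower in KO against WT saline. Of all genes 18.3% were under 0.05 in the former, 9.99% as higher, and 19.6% in the latter, 9.14% as higher, which is the background for each of these lists. The median log2 fold change was 0.72 and 0.55. Cacng4, for a transmembrane regulatory protein of AMPA receptors, had the smallest p in the former (log2 fold change 1.49 ± 0.40, edgeR adjusted p = 0.165) and Shisa9, for another auxiliary protein, in the latter (1.05 ± 0.34, edgeR adjusted p = 0.176). Of 14 scaffold and trafficking partners 3 were higher and 0 lower in each of these comparisons. The kinase anchor Akap5 had 1.75 ± 0.47 in WT ethanol and the scaffold gene Grip1 had 1.46 ± 0.48 in KO saline.

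Of the 2 kainate receptor auxiliary subunit genes, Neto1 was the one with the smaller p, with a log2 fold change of 0.86 ± 0.39 in WT ethanol and 0.84 ± 0.39 in KO saline. The other, Neto2, had -0.94 ± 0.52 and -0.31 ± 0.52. Of 3 RNA editing deaminase genes 1 was higher in each comparison. It was Adarb1, whose enzyme edits the Gria2 transcript, at 36.7 ± 21.5 normalized CPM with saline and 74.4 ± 12.7 with ethanol in WT mice, and at 89.4 ± 8.16 and 76.7 ± 27.6 in KO mice (SD, n = 3). Its log2 fold change was 1.04 ± 0.41 and 1.30 ± 0.42. None of these partner genes had an adjusted p under 0.05 in any comparison.

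Over the 12 libraries, the gene whose log2 CPM followed a subunit most closely was Evi5 for Gria2 (Pearson r = 0.983), Impact for Grik2 (0.944), Lsm11 for Grik3 (0.984) and Ehmt2 for Grik5 (0.982). It was Itga3 for Gria1 (0.953), Dffa for Gria3 (0.943), Lrrcc1 for Gria4 (0.961), Tmem82 for Grik1 (0.958) and Tnk2 for Grik4 (0.965). Each was the highest of 14738 genes and is a description of these libraries, which share depth and length trends. Among the subunit genes themselves Grik4 and Grik5 were most alike (r = 0.930), and Gria4 and Grik2 were at 0.899.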

How the data were processed

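Total RNA was sequenced with a stranded protocol on a NextSeq instrument in 12 libraries, 3 for each of 4 groups. The authors aligned reads to mm10 with TopHat and Bowtie2 and counted RefSeq transcripts in Partek Flow, whose versions are not given in the sources used here. They deposited, per transcript, an estimated count (43.2% to 45.5% of nonzero values are exactly whole, with no tolerance) and an RPKM value, whose distribution was nearly the same in every library. Counts were summed per gene symbol, rounded and tested with the edgeR 4.0.16 quasi-likelihood test (R 4.3.3, TMM factors, filterByExpr, 1 mean per group, Benjamini-Hochberg adjustment over all features tested, threshold 0.05). Transcripts were tested in the same way. Contrasts were the 4 pairwise differences that share a factor, both averaged effects and the interaction. Shares within a family were taken from RPKM and compared by exact two-sided permutation in scipy 1.17.1. The scripts were tested on simulated data.

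Alternatives were DESeq2 1.42.0, limma 3.58.1 on log2 RPKM with a pseudocount of 1 or 0.1, library sizes without TMM factors, other count minimums, removal of each library's trend over transcript length and GC (spline, 5 degrees of freedom), the first letter of the library name as a covariate, and leaving out libraries. Leaving out the libraries named with L together with the trend removal was added after seeing the data. Named partner genes were those with the smallest p of each list in either comparison with WT saline. The result of 1 such list is not reported here. The subunit genes and all lists were chosen with earlier results of these data known. Total counts of 719735 to 17066392 per library set the precision of each value, and the lowest subunit counts were those of the library labelled KO EtOH replicate 1, from 7 for Grik4 to 116 for Gria2.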

Additional observations from a re-analysis of the deposited data

Results flagged for a closer look

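In 4 subunit genes the ethanol effect of KO mice differed from that of WT mice with an unadjusted p under 0.05, by the interaction term of the edgeR model, and none of these passed adjustment over all genes. The difference was -1.91 ± 0.48 on the log2 scale for Grik2 (SE, edgeR p adjusted = 0.25) and -1.95 ± 0.68 for Gria2 (edgeR p adjusted = 0.252). It was -1.81 ± 0.81 for Grik3 (edgeR p adjusted = 0.314) and -0.97 ± 0.44 for Gria4 (edgeR p adjusted = 0.318). With trends over length and GC content removed the same terms were -0.46 for Grik2, -1.41 for Gria2, -1.37 for Grik3 and -0.13 for Gria4. Of all genes tested, 15.2% were under 0.05 in this term.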

How the results depend on the processing

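With the settings of the report, 0 of 9 subunit genes and 0 of 19 transcripts had an adjusted p under 0.05 in each comparison, and the counts differed as follows, with the share of all genes or transcripts that passed in parentheses in the same order. With DESeq2, 1 gene passed in WT ethanol against saline, 2 in KO against WT saline, 1 in the averaged treatment effect and 1 in the interaction (3.31%, 4.86%, 0.339% and 1.81% of genes), and 5, 5, 2 and 3 transcripts (5.85%, 6.94%, 0.539% and 3.37%). When each library had to hold at least 10 counts, 1 gene and 1 transcript passed in WT ethanol against saline (0.105% and 0.18%), and Grik4 was not tested. With the libraries named with L left out, 5 genes passed in WT ethanol, 4 in KO saline, 2 in treatment and 1 in genotype (21.5%, 25.3%, 8.22% and 16.2%), and 6, 6, 1 and 3 transcripts (13.9%, 17.3%, 1.47% and 8.79%). With the length and GC trend removed as well, these were 3, 2, 3 and 2 genes (19.9%, 22.3%, 13.2% and 19.1%) and 6, 5, 4 and 2 transcripts (11.2%, 12.9%, 4.25% and 8.83%). Without one replicate at a time, 0 to 2 genes and 0 to 3 transcripts passed in each of the comparisons with WT saline. Of all genes 7.68% passed in WT ethanol and 14.5% in KO saline without WT saline replicate 1. Without the library labelled KO EtOH replicate 1, 0.54% of genes passed in WT ethanol. Of all transcripts 1.21% then passed in WT ethanol and 1.38% in KO saline. The shares of all features without each other replicate are not given here. The Gria2 share was 16.6 points higher in KO than in WT saline with counts in place of RPKM, against 22.6 points. The cause was not tested. As 0 of 9 genes and 0 of 19 transcripts were called with the settings of the report, no called value could reverse. Signs of some fold changes did change, as for Grik5 without WT saline replicate 2. No paired analysis was possible because the labels give no replicate numbers, and those used here only name a library. Depth limits the library labelled KO EtOH replicate 1 most.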
